A study of Mus musculus with 11 samples.

Results

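In all, 10 genes were followed through every cell type of the mouse brain: Cd86, Cd80, Cd40, Cd83, Cd274, Pdcd1lg2, Vsir, Lgals9, Havcr2 and Cd200r1. They were chosen by name as co-stimulatory and checkpoint molecules, 10 of the 32285 genes in the count tables, by a rule that uses no measured value. The data were single-cell RNA sequencing libraries of the right brain, 1 library per mouse, read as UMIs, the distinct RNA molecules counted per gene and cell. The sham + WT group held 3 wild-type mice in which the suture did not enter the internal carotid artery, and the sham + Lrg1-/- group held 3 conventional Lrg1 knockout mice after the same surgery. The MCAO/R + WT group held 2 wild-type mice after middle cerebral artery occlusion and reperfusion (MCAO/R), and the MCAO/R + Lrg1-/- group held 3 knockout mice after MCAO/R. The study's methods give the wild-type mice as C57BL/6 males and the knockout as a conventional one on a C57BL/6 background, so that Lrg1 was absent from all cells and throughout life. By the same methods the genotypes came from different suppliers and differed in stated age, and the knockout was crossed to C57BL/6N, so that source, age and substrain cannot be told apart from the genotype here. The labels give no time of reperfusion for these libraries.

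A T cell that binds antigen on another cell reads further signals from that cell. Cd80 and Cd86 encode the B7 ligands, which drive T cells through CD28 and restrain them through CTLA-4, and Cd40 encodes a receptor through which T cells activate antigen-presenting cells. Cd274 and Pdcd1lg2 encode PD-L1 and PD-L2, the ligands of the inhibitory receptor PD-1, while Vsir encodes the checkpoint protein VISTA and Lgals9 galectin-9, a ligand of TIM-3. Havcr2, which encodes TIM-3, and Cd200r1, the receptor for CD200, are inhibitory receptors carried by myeloid cells themselves, and Cd83 marks activated antigen-presenting cells. In the brain these molecules are known from microglia, the resident macrophages of the tissue, from the macrophages and dendritic cells of its borders, and from leukocytes that enter after injury.

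The promoters of Lgals9 and Havcr2 are shown because this ligand and its receptor moved in opposite directions in wild-type microglia after MCAO/R, as described with the surgery results. Neither was called with MCAO/R in knockout microglia. Each run is the 250 bases before the RefSeq start on GRCm38.p6, 5′ to 3′, with motif matches in capitals.
Lgals9, minus strand of chr11:78984925-78985174: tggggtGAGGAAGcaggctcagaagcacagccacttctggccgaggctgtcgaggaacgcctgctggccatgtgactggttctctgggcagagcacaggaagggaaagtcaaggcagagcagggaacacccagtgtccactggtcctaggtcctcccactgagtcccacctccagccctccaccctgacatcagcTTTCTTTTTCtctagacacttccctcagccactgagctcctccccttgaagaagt
Havcr2, plus strand of chr11:46454681-46454930: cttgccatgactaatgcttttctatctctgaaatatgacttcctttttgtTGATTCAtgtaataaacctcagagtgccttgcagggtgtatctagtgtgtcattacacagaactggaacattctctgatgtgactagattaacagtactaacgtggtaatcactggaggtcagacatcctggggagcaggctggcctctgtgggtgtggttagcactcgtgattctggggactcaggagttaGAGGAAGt
The letters searched on both strands were TTTC, any 2 bases and TTTC (the interferon-stimulated response element, ISRE), TTCNNNGAA (GAS), TGANTCA (AP-1), GGG, any 2 bases and TTTCC (NF-kB) and GAGGAAG (PU.1). Lgals9 held the ISRE letters 55 bases before its start, which were found in 2.98% of 32851 promoters of this length, and GAGGAAG, found in 10.6%. Havcr2 held TGANTCA, present in 6.75% of promoters, and GAGGAAG 8 bases before its start. The sequence table held 6 of the 10 members (Cd80, Cd274, Pdcd1lg2, Vsir, Lgals9 and Havcr2), and Cd80 held TGANTCA 42 bases before its start. Cd274 and Pdcd1lg2 are neighbours on chromosome 19 (GRCm38), chr19:29367455-29388095 and chr19:29410919-29471161, both on the plus strand with 22.8 kb between them. Cd86, the member with the clearest result, lies on the minus strand of chr16:36603869-36666081.

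The libraries held 155804 barcodes and from 37159497 to 171813031 UMIs each, and 125957 cells remained after filters and removal of 6480 doublets. Lrg1 had 0 UMIs in the endothelial cells of all 6 knockout libraries, where a count of 0 limits only what this depth can show, against 7.58 to 24.7 CPM (counts-per-million, the UMIs of a gene scaled to the summed UMIs of a cell type in a library) in sham + WT mice and 418 to 515 in MCAO/R + WT mice. The knockout libraries stood apart in other ways. The median UMIs per cell were 3190 to 7911 in the 6 knockout libraries and 6064 to 11504 in the 5 wild-type libraries. In 4 knockout libraries the number of barcodes was round (15500, 9000, 5650 and 8500), and their lowest UMI number per barcode was 551 to 770 against 500 in the other 7. Which barcodes count as cells may therefore have been set differently in these 4, by a rule not given in the sources used here, and its part in the levels and in free RNA was not tested. Pairs of libraries shared 0.154% to 1.15% of the barcodes of the smaller library. In microglia, 4 transcripts of red blood cells summed to 15.1 to 20.9 CPM in wild-type and 10580 to 30590 in knockout libraries, and 14 immediate early genes that rise when tissue is dissociated summed to 35330 to 41020 and 15640 to 23160. None of the 14 or of the 4 was at 0 in any group. Their part in the genotype results below was not tested, and each of those results carries this difference beside it.

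Cell types were named from markers. The counts below use the same markers, so they describe the named populations and do not test the names. A cluster of 835 cells, 486 of them from sham + WT replicate 1, had all 10 microglial markers raised. It was left unnamed by the naming rule and is outside the microglia. The 34184 cells named red blood cells formed a single cluster, 18269 of them from MCAO/R + Lrg1-/- replicate 5. Microglia had the next highest marker score there, and Ccl12, Gpr84 and C1qb were among its leading genes. How much of its RNA came from other cells was not tested. The markers were compared over microglia, both kinds of macrophage, dendritic cells, neutrophils and endothelial cells, and not over T or B cells. All 10 microglial markers, among them Tmem119 and P2ry12, were highest in the 30951 microglia, and all 8 markers of border-associated macrophages, which line the vessels and meninges, were highest in those 1819 cells. Of 9 markers of monocyte-derived macrophages (1553 cells), 8 were highest in that type, the exception being Fn1. Of 13 dendritic cell markers, 12 were highest in dendritic cells (233 cells), the exception being Clec10a. The dendritic cell levels came from the 2 libraries with 20 or more of them, MCAO/R + Lrg1-/- replicates 2 and 5 (116 and 26 cells). A level below is the member's CPM in that cell type and library, and libraries with fewer than 20 cells of a type were left out of it.

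Each member had its own order over 17 cell types. Cd86 was highest in border-associated macrophages (1838 ± 843 CPM, SD, n = 11 libraries), followed by microglia (1190 ± 569, n = 11), dendritic cells (770 ± 20.1, n = 2) and B cells (697 ± 121, n = 6). The spreads of neighbours in this order overlapped, but they run over mice of all groups. Within every mouse Cd86 was higher in border-associated macrophages than in microglia, the closest pair being 644 and 634. Both dendritic cell libraries were MCAO/R + Lrg1-/- mice, and in that group the order turned, with 784 and 756 in dendritic cells against 600 to 634 in microglia. In each of those 2 mice dendritic cells also stood above border-associated macrophages, as with 756 against 644 in replicate 5. Cd80 was highest in dendritic cells (208 ± 9.85, n = 2) and neutrophils (199 ± 83.4, n = 4). Within MCAO/R + Lrg1-/- mice it was 215 and 201 in dendritic cells against 129 and 125 in neutrophils, and the MCAO/R + WT neutrophils, at 281 and 260, brought the means together. A gap larger than the spread followed, down to monocyte-derived macrophages (65.7 ± 36.3, n = 9). Cd40 led in B cells (43.4 ± 29.98, n = 6) and dendritic cells (32.5 ± 1.29, n = 2), followed by endothelial cells (19.3 ± 8.45, n = 11) over all groups. Within MCAO/R + Lrg1-/- mice dendritic cells (31.6 and 33.4) stood above B cells (9.92 and 24.8) and endothelial cells (15.3, 10.6 and 9.94), and the overlap with endothelial cells over all libraries came from the sham + WT endothelial cells. Cd83 was highest in microglia (810 ± 132, n = 11), where the 11 libraries ranged from 576 to 1071. B cells (721.5 ± 237, n = 6) and border-associated macrophages (569.5 ± 206.7, n = 11) followed, with overlapping spreads.

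The checkpoint ligands fell into different cells. Cd274 was highest in monocyte-derived macrophages (174 ± 103, n = 9), neutrophils (156 ± 82.3, n = 4) and dendritic cells (132 ± 26.2, n = 2), while in MCAO/R + Lrg1-/- mice dendritic cells (151 and 114) overlapped monocyte-derived macrophages (138, 109 and 90.1) and neutrophils (104 and 134). Microglia came seventh with 23.7 ± 18.8 (n = 11). Pdcd1lg2 was low everywhere, at most 23.8 ± 16.6 in B cells (n = 6). Vsir was highest in microglia (397 ± 118, n = 11) and next in neutrophils (249 ± 47.9, n = 4), and border-associated macrophages came next (154 ± 21.7, n = 11). All 4 neutrophil libraries were from MCAO/R mice, and in those same mice the range of neutrophils (219, 310, 204 and 263) overlapped that of microglia (256.3, 369, 216 and 324). Within each of these 4 mice microglia were the higher. Lgals9 had like means in microglia (105 ± 35.3, n = 11) and endothelial cells (104 ± 20.4, n = 11), but not within the sham groups. In sham + WT mice it was 157, 145 and 163 in microglia against 119, 126 and 132 in endothelial cells, and in sham + Lrg1-/- mice 67.0, 68.7 and 98.2 against 95.5, 102.4 and 102.3. Of the receptors, Havcr2 was highest in monocyte-derived macrophages (199 ± 99.7, n = 9) and microglia (153 ± 31.2, n = 11), and Cd200r1 in border-associated macrophages (42.8 ± 17.1, n = 11), against 8.03 ± 2.48 in microglia.

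**Figure D1:**
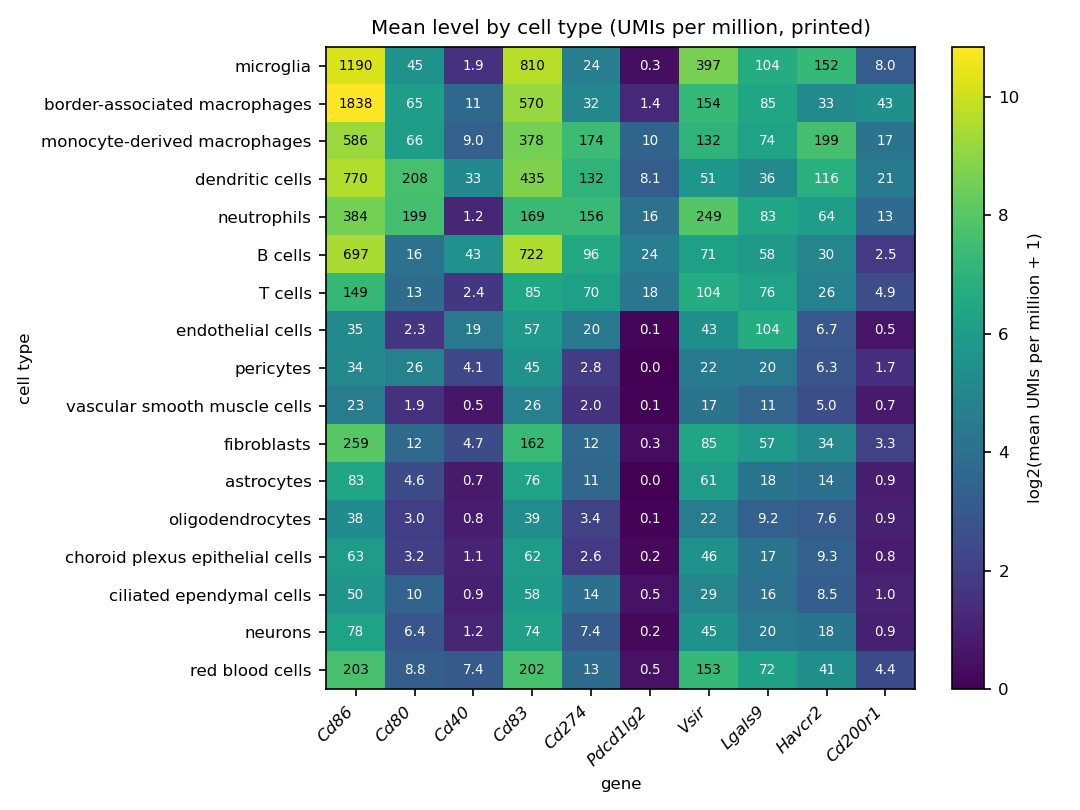
Mean level of each gene (columns) in 17 cell types (rows) over libraries with 20 or more cells, printed as CPM and coloured on a log2(value + 1) scale; columns are to be read downward, since genes differ in capture. Cd86 runs from 22.8 in vascular smooth muscle cells to 1838 in border-associated macrophages, and Cd274 has its highest means in monocyte-derived macrophages (174), neutrophils (156) and dendritic cells (132).

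Vascular smooth muscle cells, in which some of these genes such as Cd40 and Cd274 can be induced, served as a comparison for free RNA and not as an empty background. There Cd86 had 22.8 ± 11.5 CPM (n = 11) and a UMI in 2.22% of cells thinned to 1000 UMIs, against 56.2% of microglia. In microglia a median of 64.2% of a library's Cd86 UMIs was found, 76.5% of its Cd83 UMIs, 60.3% of its Havcr2 UMIs and 59.1% of its Vsir UMIs. Endothelial cells held a median of 71.1% of the Cd40 UMIs. The genes whose levels followed a member most closely over the 17 types, out of 14679 genes, were Cd83 for Cd86 (Pearson r = 0.972), Mpeg1 for Havcr2 (r = 0.961), Stk10 for Cd274 (r = 0.943), Tnf for Vsir (r = 0.953) and H2-Eb1 among the 3 nearest of Cd40 (r = 0.821). These are descriptions over types that share libraries.

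In microglia of wild-type mice, Lgals9 was lower and its receptor gene Havcr2 higher after MCAO/R. Lgals9 stood at 157, 145 and 163 CPM in sham + WT mice and at 104 and 81.4 in MCAO/R + WT mice, so every sham library was above every MCAO/R library. It fell by 0.73 on the log2 scale (± 0.18 SE, adjusted p = 0.012). Havcr2 stood at 118, 113 and 108 in sham + WT mice and at 180 and 194 in MCAO/R + WT mice, again without overlap. It rose 1.66-fold (log2 0.73 ± 0.14, adjusted p = 0.0027). Cd200r1 was lower after MCAO/R, at 5.397 and 4.47 against 7.73, 10.5 and 10.9 (log2 −0.96 ± 0.26, adjusted p = 0.020). Vsir stood at 489, 457 and 503 after sham surgery and at 256.3 and 369 after MCAO/R (log2 −0.63 ± 0.18, adjusted p = 0.024). Its adjusted p was 0.24 without MCAO/R + WT replicate 1 and from 0.052 to 0.073 without any single sham + WT mouse. Lgals9 lost its call without MCAO/R + WT replicate 2 (log2 −0.57, adjusted p = 0.077), as did Cd200r1 without that mouse or without sham + WT replicate 2 or 3 (adjusted p from 0.053 to 0.075).

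The Vsir decrease was also called in knockout microglia. It was at 490, 525 and 497 in sham + Lrg1-/- mice and at 244, 216 and 324 in MCAO/R + Lrg1-/- mice, a fall of 0.84 on the log2 scale (± 0.16, adjusted p = 0.0013). Cd274 rose in both genotypes, but on different support. The sham + Lrg1-/- libraries held 7.94, 10.5 and 11.1 CPM and the MCAO/R + Lrg1-/- libraries 40.5, 42.3 and 24.4, with every MCAO/R library above every sham library (log2 1.99 ± 0.46, adjusted p = 0.0043). In wild-type mice the sham libraries held 14.1, 13.7 and 13.2, and the MCAO/R libraries 67.8 and 15.5 (log2 1.64 ± 0.42, adjusted p = 0.014). Without MCAO/R + WT replicate 1 the log2 change was 0.15 with an adjusted p of 0.79, and without sham + WT replicate 3 it was 1.58 with an adjusted p of 0.051. Cd80 fell in knockout mice, from 37.5, 44.1 and 47.8 to 25.7, 20.7 and 28.8 (log2 −0.66 ± 0.24, adjusted p = 0.048), with the adjusted p above 0.05 in 8 of 11 fits that left out a library and a log2 change of −0.41 (adjusted p = 0.40) in cells thinned to 1000 UMIs. It was not called in wild-type mice, where the 2 MCAO/R libraries lay on either side of the sham libraries, and the interaction did not pass (log2 −0.70 ± 0.35, adjusted p = 0.23).

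Of the 10 members, 5 were called in microglia of wild-type mice and 3 in microglia of knockout mice, where 21.1% and 35.7% of the 18436 genes tested were called. The 3 in knockout mice were Vsir, Cd274 and Cd80, so that neither Lgals9 nor Havcr2 was called there. Cd86 was not called in either genotype (log2 0.28 ± 0.14 and −0.32 ± 0.13), nor was Cd83. Pdcd1lg2 stayed at 1.29 CPM or below in every microglial library and was called in no contrast.

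**Figure D2:**
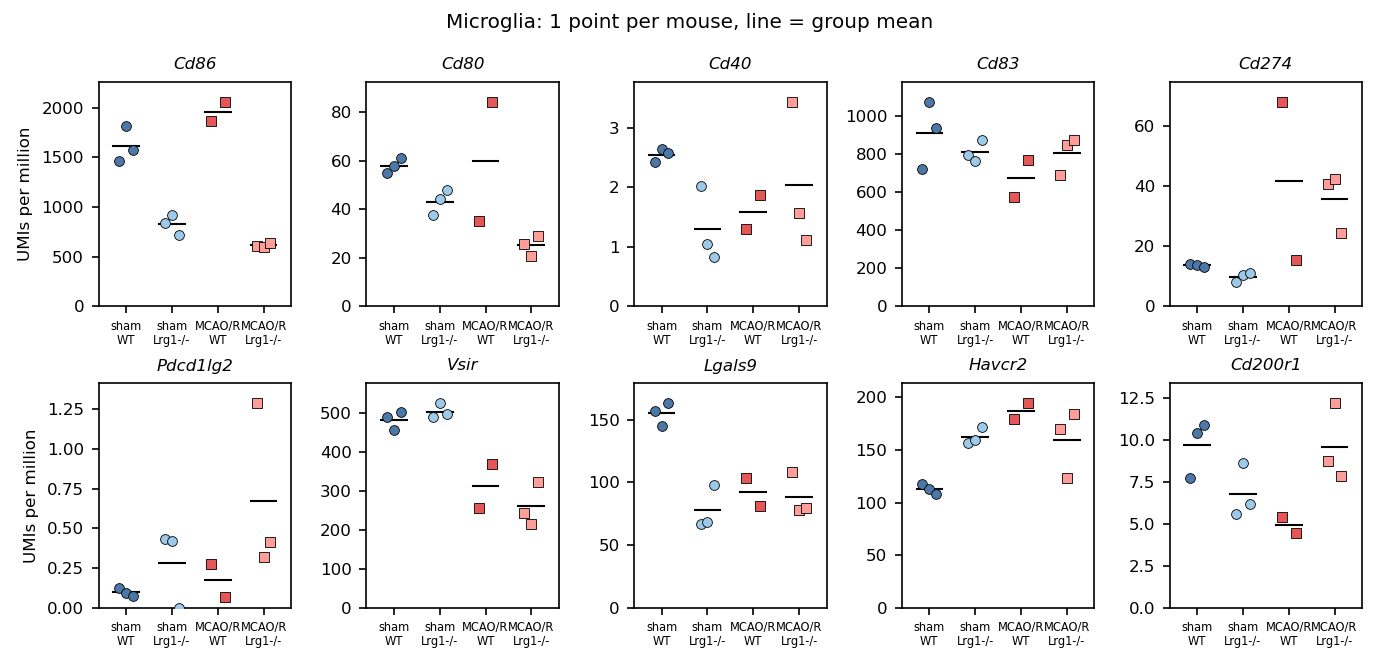
Levels of the 10 genes in microglia (CPM, each axis from 0), 1 point per mouse, black line for the group mean, circles for sham and squares for MCAO/R, light colour for Lrg1-/-. Cd86 lies between 600 and 634 in MCAO/R + Lrg1-/- mice and at 1865 and 2059 in MCAO/R + WT mice.

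Microglia fell into 5 clusters, over which the groups were spread differently. Clusters 0 and 4 held 54.6% to 70.7% and 25.3% to 37.5% of microglia in sham + WT mice, cluster 1, with the most haemoglobin RNA, 73.0% to 86.8% in sham + Lrg1-/- mice and 31.7% to 67.3% in MCAO/R + Lrg1-/- mice, and cluster 3 44.6% and 85.4% in MCAO/R + WT mice. The part of these shares in the levels over all microglia was not tested beyond the values by cluster given here. Lgals9 in wild-type mice was lower after MCAO/R without overlap in clusters 0 and 1, while the libraries overlapped in clusters 2, 3 and 4, as in cluster 3 with 82.0 to 99.6 CPM after sham surgery and 80.3 and 90.3 after MCAO/R. Havcr2 was higher after MCAO/R without overlap in clusters 0, 1, 3 and 4, as in cluster 3 with 97.5 to 120 against 175 and 187. Cd274 was highest in 1 of them in nearly all libraries. The cluster with the highest Spp1 and Lpl, genes of reactive microglia, held 49.6% and 9.48% of microglia in the 2 MCAO/R + WT mice and 30.1% to 65.4% in the MCAO/R + Lrg1-/- mice, against 0.84% to 2.22% in the sham libraries where it had 20 or more cells and 19 of 697 and 17 of 293 cells in sham + Lrg1-/- replicates 2 and 5. Cd274 was highest in that cluster in 8 of 9 libraries and ranged there from 22.2 to 103 CPM. Vsir was lowest in that cluster in 9 of 9 libraries, from 150 to 371. Within it alone, the Cd274 change in knockout mice was 0.16 on the log2 scale with an adjusted p of 0.94, resting on 1 sham + Lrg1-/- library with 20 or more of these cells, and in wild-type mice it was 1.23 with an adjusted p of 0.16. The other members called with MCAO/R in wild-type microglia did not pass within it either, with log2 changes of −0.18 for Vsir (adjusted p = 0.81), 0.40 for Havcr2 (0.45), −0.48 for Cd200r1 (0.74) and −0.51 for Lgals9 (0.40). The share of this cluster moved with Cd274 over all microglia, and its part in that result was not tested further.

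**Figure D3:**
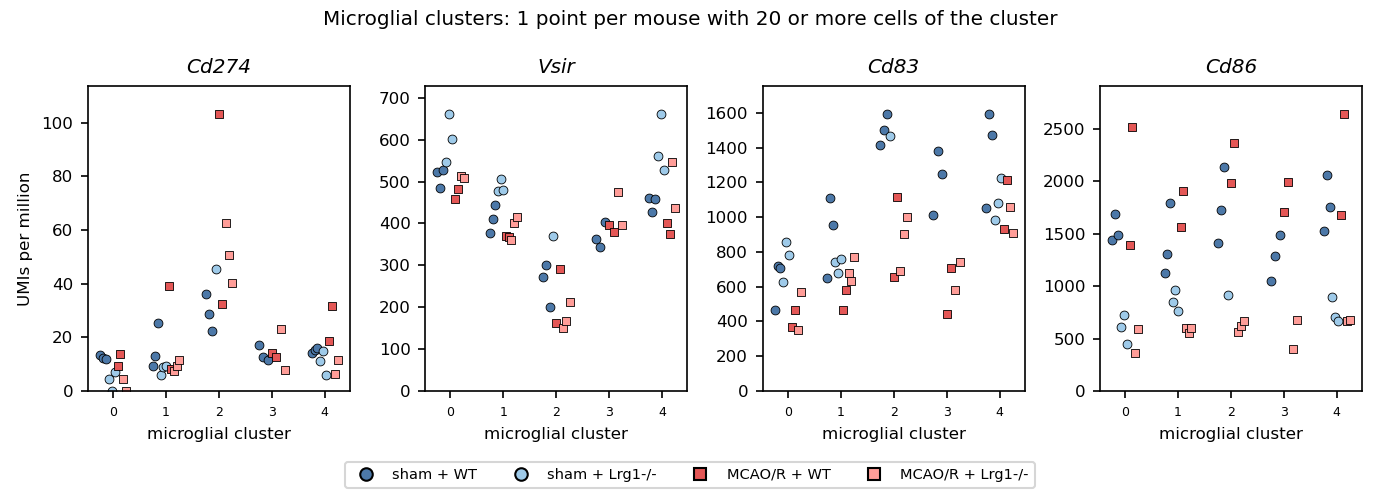
Levels of 4 genes in the 5 microglial clusters (0 to 4; cluster 1 has the most haemoglobin RNA and cluster 2 the most Spp1 and Lpl), 1 point per mouse with 20 or more cells, axes from 0 in CPM. Cd274 is highest in cluster 2 in 8 of 9 libraries and Vsir lowest there in 9 of 9, while Cd86 is lower in every knockout library than in the wild-type libraries of the same cluster and surgery.

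The clearest result was lower Cd86 in knockout microglia. After sham surgery the levels were 836, 920 and 721 CPM in sham + Lrg1-/- mice and 1461, 1819 and 1571 in sham + WT mice, and the groups did not overlap. The knockout level was 2.23-fold lower (log2 −1.16 ± 0.13, adjusted p = 7.8e-05). After MCAO/R the levels were 609, 600 and 634 in knockout mice and 1865 and 2059 in wild-type mice, a 3.39-fold lower level (log2 −1.76 ± 0.14, 95% interval −2.05 to −1.48, adjusted p = 1.1e-05). The share of microglia with a Cd86 UMI, in cells thinned to 1000 UMIs, was 41.1% to 42.6% in MCAO/R + Lrg1-/- mice and 71.3% to 72.0% in MCAO/R + WT mice, and 86.2% to 92.5% and 98.7% to 99.0% in unthinned cells. The interaction, the change of the genotype difference with surgery, was −0.60 ± 0.20 for Cd86 and was not called (adjusted p = 0.074).

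The same order held inside the clusters. In each of the 5 clusters after MCAO/R and each of the 4 clusters with libraries of both genotypes after sham surgery, every knockout library lay below every wild-type library. Clusters 0, 3 and 4 after MCAO/R had 2 libraries per genotype, those of knockout mice with 23 to 73 cells. Cluster 2 after sham surgery had 1 knockout library, with 26 cells. After sham surgery Lgals9 was also below in 4 of 4 clusters and Vsir above in 4 of 4, though Vsir was not called. The share of all genes that separate this way was not counted. In the Spp1 and Lpl cluster after MCAO/R, Cd86 was 567 to 670 CPM in knockout and 1982 to 2369 in wild-type mice. In the cluster with the most haemoglobin RNA it was 549 to 602 against 1561 to 1908.

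Cd80, the other B7 ligand, was lower in knockout microglia after MCAO/R, at 25.7, 20.7 and 28.8 against 35.3 and 84.2 CPM (log2 −1.32 ± 0.25, adjusted p = 0.0033), and the 2 wild-type mice differed widely from each other. The call held in 12 of 13 alternatives and 11 of 11 fits that left out a library, but the log2 difference ran from −1.86 to −0.66. After sham surgery it was at 37.5, 44.1 and 47.8 against 55.1, 57.9 and 61.1, a difference that did not pass (log2 −0.63 ± 0.24, adjusted p = 0.073). Lgals9 was lower in knockout microglia after sham surgery, at 67.0, 68.7 and 98.2 against 157, 145 and 163 (log2 −1.19 ± 0.17, adjusted p = 0.00032). After MCAO/R it stood at 108, 77.7 and 79.3 in knockout mice and 104 and 81.4 in wild-type mice (log2 −0.18 ± 0.18). The genotype differences of Lgals9 after MCAO/R and after sham surgery differed by 1.01 ± 0.24 (adjusted p = 0.029). Cd200r1 was higher in knockout microglia after MCAO/R, at 8.79, 12.2 and 7.89 against 5.397 and 4.47 (log2 0.90 ± 0.27, adjusted p = 0.031), and its interaction was 1.60 ± 0.37 (adjusted p = 0.026). The Cd200r1 difference lost its call without MCAO/R + WT replicate 2 (log2 0.69, adjusted p = 0.20), MCAO/R + Lrg1-/- replicate 2 (0.61, adjusted p = 0.12) or sham + WT replicate 2 or 3 (0.84 each, adjusted p = 0.054 and 0.053), and in thinned cells (1.23, adjusted p = 0.054). Without the cluster of highest haemoglobin RNA neither interaction was called (Lgals9 0.69, Cd200r1 0.997). The Lgals9 interaction was lost without sham + Lrg1-/- replicate 1 or 2, any single sham + WT mouse or MCAO/R + WT replicate 2 (adjusted p from 0.070 to 0.107), and that of Cd200r1 without sham + Lrg1-/- replicate 1, sham + WT replicate 2 or 3 or MCAO/R + WT replicate 2 (0.062 to 0.070). The p-values measure the spread between mice. Of the 10 members, 3 were called between genotypes after MCAO/R, 2 after sham surgery and 2 in the interaction, where 20.2%, 23.5% and 7.34% of all genes were called.

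Among macrophages, Cd86 was again lower in knockout mice. In border-associated macrophages it stood at 1097, 742 and 644 CPM in MCAO/R + Lrg1-/- mice and at 2523 and 2939 in MCAO/R + WT mice, a 3.51-fold lower level (log2 −1.81 ± 0.23, adjusted p = 0.00018). After sham surgery it was at 1684, 1800 and 1154 against 2164, 2895 and 2574 without overlap, and this did not pass (log2 −0.78 ± 0.21, adjusted p = 0.070). Border-associated macrophages fell into 4 clusters, of which M1 held 69 and 116 of the 235 and 166 cells in MCAO/R + WT mice and 4, 13 and 8 of the 40, 257 and 204 cells in MCAO/R + Lrg1-/- mice. In those knockout mice M3 held 22, 65 and 97 cells, against 27 and 11 in wild-type mice, and the part of these clusters in the Cd86 difference was not tested. Cd86 fell in knockout mice with MCAO/R (log2 −0.94 ± 0.21, adjusted p = 0.011). Cd200r1 was also lower in knockout border-associated macrophages after MCAO/R, at 24.98, 30.9 and 21.3 against 41.0 and 55.5 (log2 −0.92 ± 0.25, adjusted p = 0.018), the opposite direction to microglia. Cd83 fell with MCAO/R in these cells in both genotypes, from 551, 848 and 843 to 316 and 360 in wild-type mice (log2 −1.16 ± 0.24, adjusted p = 0.0086) and by 0.81 on the log2 scale (± 0.21, adjusted p = 0.021) in knockout mice. The 14 immediate early genes summed to 19260 to 23380 CPM in the border-associated macrophages of sham + Lrg1-/- mice and 12000 to 14830 in those of MCAO/R + Lrg1-/- mice, with 9 of 14 called lower and 1 higher (median log2 −0.76), and in wild-type mice 2 were called lower (median −0.04). Their part in the changes of Cd86 and Cd83 was not tested. Of all genes tested in border-associated macrophages, 20.4% were called between genotypes after MCAO/R and 2.2% after sham surgery, and 7.75% and 13.1% with MCAO/R in wild-type and knockout mice.

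Taking both kinds of macrophage together, Cd274 and Havcr2 were higher in knockout mice after MCAO/R. Cd274 stood at 81.5, 91.1 and 79.7 CPM against 34.9 and 10.5 (log2 1.92 ± 0.45, adjusted p = 0.0055) and Havcr2 at 89.99, 117 and 71.4 against 49.1 and 30.3 (log2 1.31 ± 0.32, adjusted p = 0.0074). The 14 immediate early genes summed to 9227 to 11780 CPM in the macrophages of these knockout mice and 35730 to 42440 in those of MCAO/R + WT mice, and the 4 red blood cell transcripts to 4439 to 17370 and 15.7 to 19.5, and their part was not tested. Without MCAO/R + WT replicate 2 neither was called (log2 1.32 and 0.97, adjusted p = 0.063 and 0.11), nor in cells thinned to 1000 UMIs (1.06 and 0.98, adjusted p = 0.083 and 0.12). Cd274 was also higher after sham surgery (log2 1.95 ± 0.40, adjusted p = 0.015), with the adjusted p from 0.054 to 0.073 without sham + Lrg1-/- replicate 5 or any single sham + WT mouse and 0.11 in thinned cells. The share of monocyte-derived cells among macrophages was 43.7% to 74.5% in MCAO/R + Lrg1-/- mice, 5.68% to 8.2% in MCAO/R + WT mice, 15.6% to 40.4% in sham + Lrg1-/- mice and 9.54% to 10.8% in sham + WT mice, and those cells hold more of both genes. The part of this mix in the Cd274 and Havcr2 differences was not tested. Neither gene was called between genotypes in border-associated macrophages after MCAO/R (Cd274 log2 1.13 ± 0.75, Havcr2 0.41 ± 0.42). With its wide standard error, the lack of a call for Cd274 there also says little. In monocyte-derived macrophages the same differences were −0.46 ± 0.57 and 0.18 ± 0.55, but rest on 1 MCAO/R + WT mouse with 21 such cells, and this contrast called 6 of 6018 genes, so that the lack of a call there says little. Cd80, Vsir and Lgals9 were called in no contrast of macrophages, together or by kind, nor was Cd40, which was not tested in the monocyte-derived kind, and Pdcd1lg2 passed the filter on low counts in microglia and monocyte-derived macrophages alone. Of the members, 3 were called between genotypes after MCAO/R in all macrophages, 1 after sham surgery, 1 with MCAO/R in wild-type and 2 in knockout mice, and 0 in the interaction by edgeR, where 34%, 4.97%, 7.42%, 26.1% and 1.08% of 11524 genes were called. At an unadjusted p under 0.05 the macrophage interaction held 1 member, Cd86 (log2 −1.27 ± 0.38, adjusted p = 0.11), and DESeq2 called 1.

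**Figure D4:**
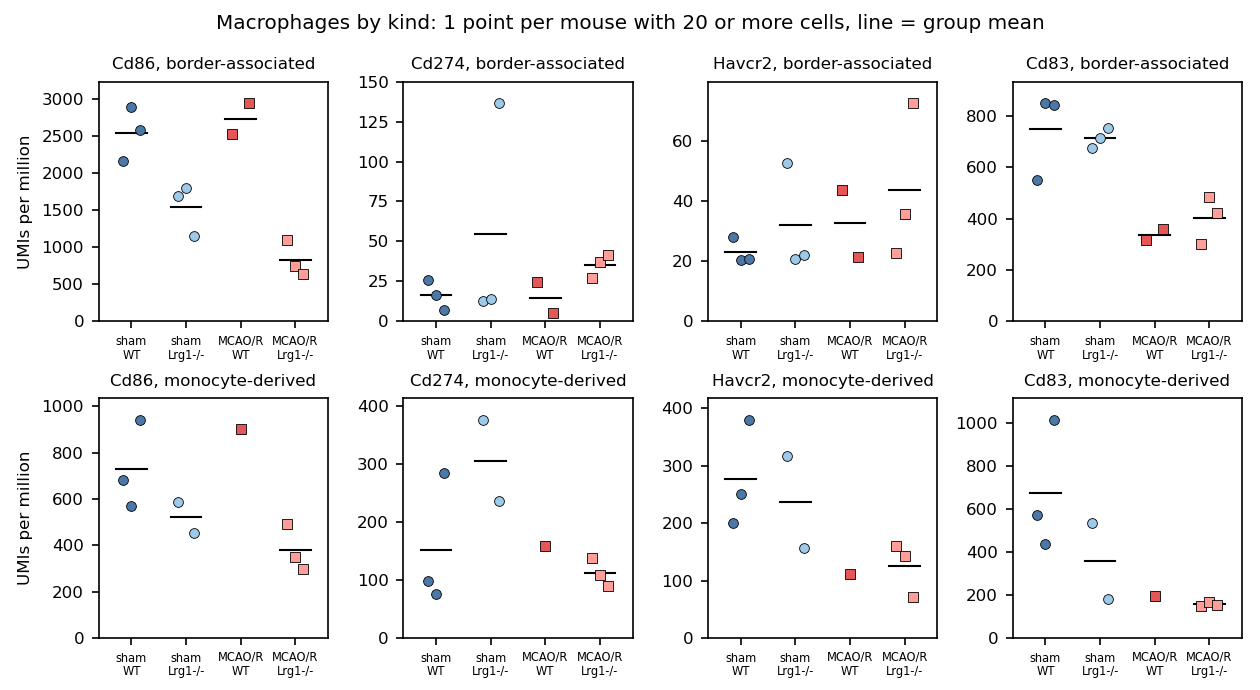
Levels of 4 genes in border-associated (top) and monocyte-derived macrophages (bottom), 1 point per mouse with 20 or more cells, black line for the group mean where there are 2 or more mice, axes from 0 in CPM. Cd86 in border-associated macrophages separates the genotypes after MCAO/R (644 to 1097 against 2523 and 2939), while the group means of Cd274 and Havcr2 are higher in the monocyte-derived cells.

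In monocyte-derived macrophages 1 member was called. Cd274 was lower after MCAO/R in knockout mice, at 138, 109 and 90.1 CPM against 376 and 236 in the 2 sham + Lrg1-/- mice with 20 or more such cells (log2 −1.42 ± 0.42, adjusted p = 0.044). These cells made up 2 clusters with different leading genes, M0 with Arg1, Chil3 and Lyz2 and M5 with Adgre4, Cd36, Pparg and Ear2. Of the 9 markers of the type, 8 were raised in M0 and 7 in M5, and none was among the leading genes of M5. Cells of the sham + Lrg1-/- mice were mostly in M5 (38 of 46 and 16 of 23 cells) and those of the MCAO/R + Lrg1-/- mice mostly in M0 (18 of 31, 655 of 738 and 548 of 595). The part of this shift in the Cd274 difference was not tested. The MCAO/R + WT group gave 1 mouse with 20 or more of these cells, so that its spread was taken from the other groups. Cd86 there was 493, 351 and 297 against 901 in that mouse (log2 −1.20 ± 0.34, adjusted p = 0.22). The share of all genes called was 0.0997% and 0.299% between genotypes after MCAO/R and sham surgery, and 13% with MCAO/R in knockout mice.

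Dendritic cells, the professional antigen-presenting cells, were too few for a test (233 cells, with 20 or more in 2 libraries). Pooled over the mice of a group, Cd86 was 1226 CPM (95% Poisson interval 1137 to 1321, counting error only) in sham + WT mice, 573 (504 to 650) in sham + Lrg1-/- mice, 1415 (1292 to 1547) in MCAO/R + WT mice and 762 (725 to 801) in MCAO/R + Lrg1-/- mice. The pooled values were lower in the knockout groups. By library, most with under 20 cells, Cd86 was 839, 1432 and 1276 in sham + WT mice, 616, 708 and 237 in sham + Lrg1-/- mice, 1466 and 1096 in MCAO/R + WT mice and 511, 784 and 756 in MCAO/R + Lrg1-/- mice. Among dendritic cells without a UMI of Ccr7, the receptor of migrating dendritic cells, the sham libraries overlapped, with 716 in sham + WT replicate 1 and 783 in sham + Lrg1-/- replicate 2. Cd80 was 310 (254 to 375) in MCAO/R + WT mice and 204 (185 to 224) in MCAO/R + Lrg1-/- mice. In the 63 dendritic cells with a UMI of Ccr7, Cd274 was at 284 CPM and Cd80 at 322, against 65 and 163 in the 170 cells without one. Of the 63 cells, 36 came from MCAO/R + Lrg1-/- replicate 2, where Cd274 was 304 with and 83.8 without a Ccr7 UMI and Cd80 298 and 178. Neutrophils reached 20 cells in 4 libraries, all after MCAO/R, and were not tested either. Cd86 was at 627 and 671 CPM in their MCAO/R + WT libraries and at 119 and 118 in MCAO/R + Lrg1-/- replicates 2 and 5, and Cd80 at 281 and 260 against 129 and 125. Vsir stood at 219 and 310 against 204 and 263, so that its ranges overlapped.

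Endothelial cells, which line the vessels, held between 22.02% and 81.9% of a library's Cd40 UMIs, and the mixed cluster named red blood cells up to 41.0%. In endothelial cells Cd40 was at 31.1, 31 and 32.6 CPM in sham + WT mice, 13.8, 21.02 and 18.3 in sham + Lrg1-/- mice, 15.1 and 13.8 in MCAO/R + WT mice and 15.3, 10.6 and 9.94 in MCAO/R + Lrg1-/- mice. The sham + WT mice stood above all others. The 4 red blood cell transcripts summed to 768 to 1436 CPM in the endothelial cells of sham + WT mice and 17120 to 26180 in those of sham + Lrg1-/- mice, and their part was not tested. Cd40 was lower with the knockout after sham surgery (log2 −0.84 ± 0.16, adjusted p = 0.0042) and fell with MCAO/R in wild-type (−1.09 ± 0.18, adjusted p = 0.0012) and knockout mice (−0.60 ± 0.17, adjusted p = 0.031). Vsir fell with MCAO/R from 44.0, 43.7 and 44.7 to 22.9 and 25.2 in wild-type mice (−0.84 ± 0.20, adjusted p = 0.011) and by 0.69 on the log2 scale (± 0.18, adjusted p = 0.019) in knockout mice, where the groups overlapped. Cd83 fell in wild-type mice (−1.31 ± 0.34, adjusted p = 0.019), as did Lgals9 (−0.54 ± 0.17, adjusted p = 0.044), which lost the call in 9 of 11 fits that left out a library. Leaving out either MCAO/R + WT mouse or sham + WT replicate 2 or 3 ended the Cd83 call, and 4 of 11 such fits ended that of Cd40 in knockout mice, which was −0.11 (adjusted p = 0.92) in cells thinned to 1000 UMIs. The Vsir call was lost in wild-type mice without MCAO/R + WT replicate 1 (adjusted p = 0.087), and in knockout mice without sham + Lrg1-/- replicate 2 or 5 or MCAO/R + Lrg1-/- replicate 2 (0.054 to 0.087) or in thinned cells (0.14). With MCAO/R in endothelial cells, 5 of the 14 immediate early genes were called lower in wild-type mice (37060 to 39110 CPM against 29920 to 31440) and 12 of 14 in knockout mice (34000 to 35450 against 20060 to 22560), and their part was not tested.

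Cd86 was lower in knockout endothelial cells after MCAO/R (8.72, 24.1 and 42.2 against 69.4 and 63.0, log2 −1.45 ± 0.40, adjusted p = 0.020). The call was lost without MCAO/R + WT replicate 1 (adjusted p = 0.084) or 2 (0.052), without MCAO/R + Lrg1-/- replicate 2 (0.057) and in a fit of these 2 groups alone (0.12). Vascular smooth muscle cells held 38.6 and 42.2 CPM of Cd86 in the MCAO/R + WT mice and 11.4 to 30.8 in the MCAO/R + Lrg1-/- mice, and the part of free RNA in this difference was not tested. The same holds for the endothelial levels of Vsir and Cd83, beside means of 17.2 and 25.7 CPM in smooth muscle cells. Members called in endothelial cells were 1 and 1 between genotypes after MCAO/R and sham surgery, 4 and 2 with MCAO/R in wild-type and knockout mice and 0 in the interaction, where 24.3%, 17.1%, 18.4%, 19.9% and 1.77% of 16772 genes were called. The endothelial interaction held 1 member at an unadjusted p under 0.05, Lgals9 (log2 0.51 ± 0.23, adjusted p = 0.28), and DESeq2 called 0.

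**Figure D5:**
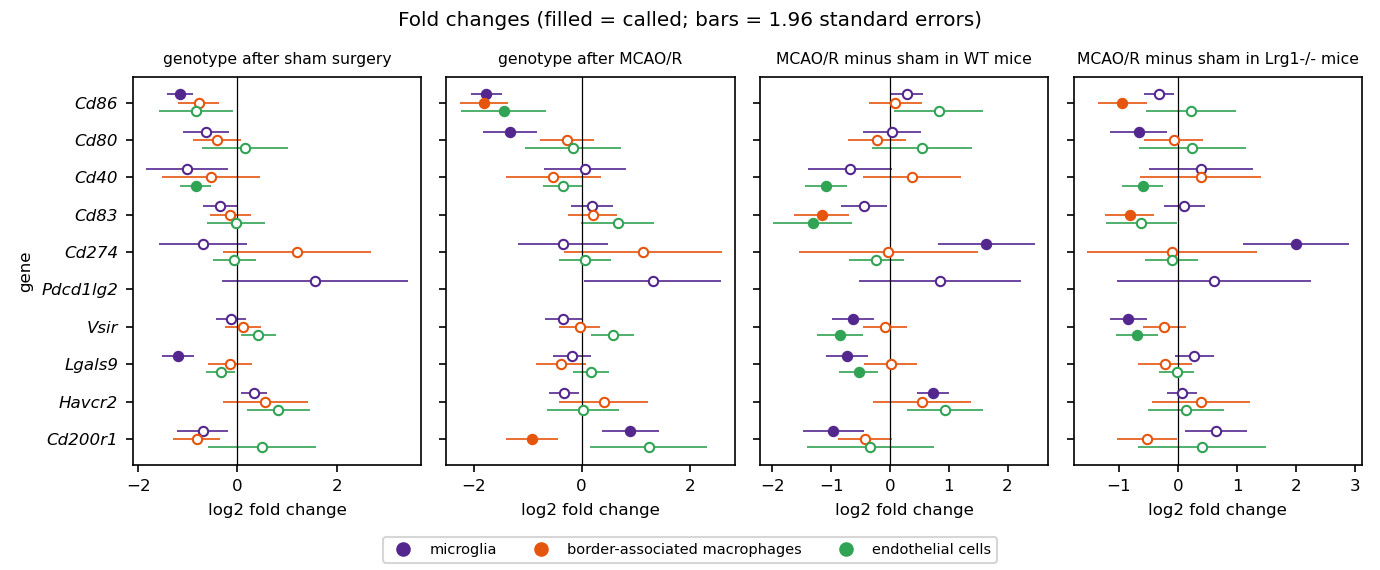
Log2 fold changes (x axis) of the members (y axis) in 4 contrasts, for microglia, border-associated macrophages and endothelial cells, with bars for the 95% interval, filled points passing the test; a missing point was not tested. Cd86 is at −1.76 in microglia and −1.81 in border-associated macrophages between genotypes after MCAO/R.

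Other genes of these pathways were read from lists of 21 further ligands, 17 lymphocyte receptors and 14 signalling genes, of which 2 were not in the table. In microglia after MCAO/R, 4 of the 16 ligands tested rose and 4 fell in wild-type mice (median log2 0.02, against 0.05 over all genes), and 3 rose and 1 fell in knockout mice (0.01 against 0.03), where 21.1% and 35.7% of all genes were called. Lgals3, the gene of galectin-3, rose in both (log2 5.37 and 5.34, adjusted p = 0.00011 and 0.00013), as did Tnfsf9, the ligand of 4-1BB (3.23 and 4.45). Ceacam1, another proposed partner of TIM-3, fell in both (−1.34 and −1.06). Between genotypes after MCAO/R, 2 of the 16 ligands rose (Pvr, log2 1.13, and Cd276, 1.12) and 1 fell (Cd47, the signal that restrains phagocytosis, −0.65), with a median of 0.19 against 0.09 over all genes, of which 20.2% were called.

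Of the 12 signalling genes tested, 2 fell between genotypes after MCAO/R in microglia (median −0.26 against 0.09), a smaller share than the 20.2% of all genes. These were Irf1 (log2 −1.09) and Stat3 (−1.05), transcription factors of interferon and cytokine signalling, both with an adjusted p of 0.00031. Irf1 stood at 31.4 to 36.5 CPM in MCAO/R + Lrg1-/- mice and 64.0 to 75.9 in MCAO/R + WT mice. Of the 15 lymphocyte receptors tested, 7 rose and 1 fell between genotypes after MCAO/R (median 1.44), where 20.2% of all genes were called. The risers named by the rule are T cell genes at or below 1.02 CPM in microglia (Cd2, Cd28 and Tnfrsf18). The MCAO/R + Lrg1-/- libraries held 51, 516 and 329 T cells and the MCAO/R + WT libraries 23 and 13. In microglia, 4 neutrophil transcripts that trace free RNA summed to 22.3 to 372 in the MCAO/R + Lrg1-/- and 56.6 to 114 in the MCAO/R + WT libraries, with overlap. In the same order, 4 oligodendrocyte transcripts summed to 423 to 1456 and 428 to 1235, with overlap. Those of choroid plexus summed to 3136 to 4595 and 142 to 307, and those of red blood cells to 10580 to 16920 and 15.1 to 19.2, both without overlap. The part of free RNA in these rises was not tested.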

How the data were processed

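Counts were deposited by the authors as filtered gene-by-barcode matrices of UMI counts, not normalised. The matrix headers name Cell Ranger 7.0.1, and the submitters' processing notes name STAR and mm10. Cells with more than 500 genes, more than 1000 UMIs and less than 25% mitochondrial UMIs were kept. Doublets were scored per library and removed by 1 of 2 rules. An automatic threshold was used in sham + WT replicates 2 and 3, MCAO/R + WT replicates 1 and 2 and MCAO/R + Lrg1-/- replicate 2. In the other libraries, mostly of knockout mice, about the highest 6% of scores were removed. Cells were clustered (Leiden method of igraph) and named from fixed markers by a scoring rule set after the clusters were seen. Raw counts were summed per library and cell type (20 or more cells) and fitted over all genes and all 4 groups with edgeR 4.0.16 (TMM, quasi-likelihood F test). A call needed a Benjamini-Hochberg adjusted p under 0.05 and an absolute natural log fold above 0.25. The standard error (SE) of a log2 fold change was derived from the test, as its absolute value divided by the square root of F. The 95% interval is a normal range from this SE. It is therefore somewhat narrow beside the F test, whose fits had 7 residual degrees of freedom (5 in monocyte-derived macrophages). Adjusted p-values in the text come from this test. The script was tested on simulated data.

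The 10 genes and the gene lists were chosen with earlier results of these data known. All 10 are described, and of the called genes of each list at most 3 higher and 3 lower, by size of change, could be named, with the 3 genes nearest to each member over cell types. Replicate numbers were checked for pairing: same-numbered libraries correlated between −0.308 and 0.0928. In the group of 2 mice the values of the libraries mirror each other, so this check can neither show nor exclude pairing. Alternatives, run for microglia, all macrophages and endothelial cells, were other scalings, filters, DESeq2 1.42.0, thinned cells, a replicate block, other cell subsets and leaving out each library. Alternatives by microglial cluster were chosen after seeing the data.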

Additional observations from a re-analysis of the deposited data

Results flagged for a closer look

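In microglia, 2 of the 10 genes passed the interaction test of genotype and surgery. For Lgals9 the difference between knockout and wild-type mice was −1.19 on the log2 scale after sham surgery and −0.18 after MCAO/R, an interaction of 1.01 (adjusted p = 0.029, edgeR). For Cd200r1 it was −0.70 after sham surgery and 0.90 after MCAO/R, an interaction of 1.60 (adjusted p = 0.026, edgeR). Leaving out a library ended the Lgals9 call in 6 of 11 fits and the Cd200r1 call in 4 of 11, a replicate block ended both (adjusted p = 0.080 for each), and thinned cells ended that of Cd200r1 (adjusted p = 0.072). The summed level of 4 red blood cell transcripts and of 14 immediate early genes also separated the genotypes in microglia, and their part in both results was not tested.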

How the results depend on the processing

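Lower Cd86 in knockout microglia after MCAO/R held in 13 of 13 alternatives and in 11 of 11 fits that left out a library (log2 −1.99 to −1.70), and after sham surgery in 12 of 13 and 11 of 11. The direction turned for Cd200r1 in the microglial interaction within the Spp1 and Lpl cluster alone (−0.29) and for Cd274 between genotypes after MCAO/R in monocyte-derived macrophages alone (−0.46), and the cause was not tested. The counts of members called moved as follows, in the order genotype after MCAO/R, genotype after sham surgery, MCAO/R in wild-type mice, MCAO/R in knockout mice and interaction. With the Bonferroni adjustment microglia gave 1, 1, 0, 0 and 0, macrophages 1, 0, 0 and 0 in the first 4 and endothelial cells 0 in the first 4. DESeq2 gave 4 in the microglial interaction, 3 in macrophages after sham surgery, 1 in their interaction and 2 in endothelial cells after MCAO/R. Without a filter on low counts there were 4 in microglia and 4 in macrophages after sham surgery, 1 in the macrophage interaction, and 2 and 2 in endothelial cells between genotypes. Thinned cells gave 1 in the microglial interaction, 1 in the macrophage interaction and 0 in knockout endothelial cells. Fits of the 2 groups alone gave 7, 4 and 4 after sham surgery in microglia, macrophages and endothelial cells, and 0 in endothelial cells between genotypes after MCAO/R and in knockout mice. Kept doublets gave 2 in macrophages and 2 in endothelial cells after sham surgery. Without the haemoglobin cluster microglia gave 5 after MCAO/R and 0 in the interaction, and the Spp1 and Lpl cluster alone gave 0 in every contrast but genotype after MCAO/R. Border-associated macrophages alone gave 0 after sham surgery, and monocyte-derived macrophages alone 0, 0, 0 and 1.

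With a replicate block the count was 2 between genotypes after MCAO/R in microglia (Cd200r1 lost, adjusted p = 0.055), 2 for MCAO/R in wild-type microglia, 3 in wild-type endothelial cells (Lgals9 lost, adjusted p = 0.13), 0 in the microglial interaction, 0 in macrophages and 0 in endothelial cells after sham surgery, and 1 in knockout endothelial cells. The numbers were not shown to pair the mice (13 same-numbered pairs, read in each of microglia, macrophages and endothelial cells), and pairing was not excluded. Leaving out each library gave 2 to 5, 2 to 5, 2 to 5, 2 to 4 and 0 to 4 calls in microglia, 1 to 4, 0 to 3, 0 to 1, 2 to 2 and 0 to 1 in macrophages and 0 to 4, 1 to 3, 1 to 6, 0 to 2 and 0 to 2 in endothelial cells. Without any scaling, 62.8% instead of 49.5% of called genes were higher in knockout microglia after MCAO/R, and 71.0% instead of 47.8% after sham surgery. A minimum of 50 cells removed no library from microglia, all macrophages or endothelial cells, and the interaction has no fit of 2 groups. The alternatives and the leaving out of libraries were run on these types only. Calls printed for border-associated or monocyte-derived macrophages by themselves therefore carry no such check, and some of their libraries held fewer than 50 cells. Few dendritic cells and the low counts of Pdcd1lg2 and Cd40 in microglia limit what could be seen.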
